A study of Mus musculus with 6 samples.

Results

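The TNF and TNF receptor superfamilies were followed by RNA sequencing in CD11c+ dendritic cells sorted from mouse spleen on an autoMACS instrument, in 3 libraries of cells treated with IL-33 and 3 libraries of cells treated with PBS. Members were the genes whose symbols start with Tnfsf (ligands) or Tnfrsf (receptors), except Tnfsf4, Tnfsf9, Tnfrsf4, Tnfrsf18 and Tnfrsf11a. This gave 27 of the 24346 genes listed, namely 10 ligand genes and 17 receptor genes. IL-33 is an alarmin of the IL-1 family, and PBS is the saline vehicle. Strain, age, dose, time and whether treatment took place in vivo are not in the labels. Nor is it stated that the 3 libraries per condition had separate sources, so p-values measure the spread between libraries, which may be technical.

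TNF superfamily ligands are mostly membrane proteins that assemble as trimers and can be shed, and their receptors cluster around a bound trimer. Some receptors with a death domain can recruit FADD and caspase-8, and many receptors without one bind TRAF adaptors and activate NF-κB. In the spleen, BAFF (Tnfsf13b) and APRIL (Tnfsf13) keep B cells and plasma cells alive through the BAFF receptor, TACI and BCMA. LIGHT, TRAIL, CD30 ligand and TL1A act between dendritic cells, T cells and natural killer (NK) cells.

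Levels are FPKM, fragments per kilobase of transcript and per unit of library depth, as the authors deposited them. FPKM are scaled to transcript length, so levels of different genes can be compared. Totals of FPKM were 778391 to 841884 in IL-33 libraries and 614522 to 641412 in PBS libraries, while depth relative to PBS replicate 1, read from the steps between low values, was 0.946 to 1.22 and did not separate the groups. The absolute depth is unknown. The CD11c gene Itgax stood at 283 ± 15.1 FPKM with IL-33 and 241 ± 11.8 FPKM with PBS (SD, n = 3 each), and the dendritic cell factor gene Zbtb46 at 23.5 ± 1.94 FPKM with IL-33 and 36.9 ± 0.745 FPKM with PBS. All 10 listed dendritic cell markers passed the filter on low values, and 6 rose and 4 fell, or 4 and 4 with libraries rescaled to equal totals. Transcripts of other cells were present too. Summed B cell markers were 386 to 516 FPKM with IL-33 and 341 to 812 FPKM with PBS, where replicate 1 was the library at 812, and 2 of the 10 markers fell.

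Promoter stretches of 3 receptor genes are shown. They are the genes of the 2 TNF receptors, shown because their levels changed places between the groups, and Tnfrsf17, shown as the tested member with the largest rise. Capitals mark matches to TTCNNNGAA, the spacing bound by several STAT factors, searched on both strands. Sequences are from RefSeq on GRCm38.p6, 5′ to 3′ on the gene's strand.
Tnfrsf1a, chr6:125349473-125349497, plus strand, in an exon of another annotated transcript of the gene: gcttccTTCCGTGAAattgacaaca
Tnfrsf1b, chr4:145246871-145247120, minus strand: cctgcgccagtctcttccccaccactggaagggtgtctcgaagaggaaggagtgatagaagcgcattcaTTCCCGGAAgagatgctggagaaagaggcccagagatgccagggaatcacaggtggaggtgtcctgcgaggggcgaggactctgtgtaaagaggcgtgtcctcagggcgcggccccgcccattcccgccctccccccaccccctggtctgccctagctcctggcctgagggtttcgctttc
Tnfrsf17, chr16:11313559-11313808, plus strand: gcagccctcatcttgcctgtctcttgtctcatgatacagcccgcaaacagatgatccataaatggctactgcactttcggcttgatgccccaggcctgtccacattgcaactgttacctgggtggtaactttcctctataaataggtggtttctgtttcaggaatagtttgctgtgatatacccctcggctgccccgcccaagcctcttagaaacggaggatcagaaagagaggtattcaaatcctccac
The match began 244 bases before the RefSeq start of Tnfrsf1a and 181 bases before that of Tnfrsf1b, and the Tnfrsf17 stretch held none. The promoter table matched 22 of the 27 members, in 26 windows of 250 bases before a start. TTCNNNGAA was present in 4 of these windows, of Tnfrsf1a, Tnfrsf1b, Tnfrsf9 and Tnfrsf25, and in 7.02% of 32851 promoter windows of all genes. The longer spacing TTCNNNNGAA was present in 2 windows, which overlap in front of Tnfsf13b, and in 5.85% of all windows. The 10-base NF-κB consensus was present in 3 windows and in 7.25% of all windows. A match is a description of the letters only.

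Of the 27 members, 18 reached 1 FPKM in at least 3 of the 6 libraries and were tested, 7 of them ligands and 11 receptors. With IL-33, 6 of these rose and 5 fell, while 7 did not pass an adjusted p of 0.05 (limma across all 11518 tested genes, Benjamini-Hochberg). That is 61.1% of tested members, where 53.6% of all tested genes were called, 28.0% higher and 25.5% lower. The libraries of the groups did not overlap for 11 of 18 members, against 63.6% of all tested genes. Both shares lay near the background. The median change was 0.13 over tested members and 0.01 over all tested genes, on the log2(FPKM + 1) scale, IL-33 minus PBS. The rescaling of libraries to equal FPKM totals moved the median of all genes to -0.29, and 2 members were then higher and 6 lower, against 11.1% and 50.7% of all genes. Tnfrsf17 and Tnfsf13 were the 2 still higher, the latter narrowly (0.67, limma adjusted p = 0.0498). With quantile normalization 5 members were higher and 4 lower, against 22.1% and 25.0% of all genes.

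**Figure D1:**
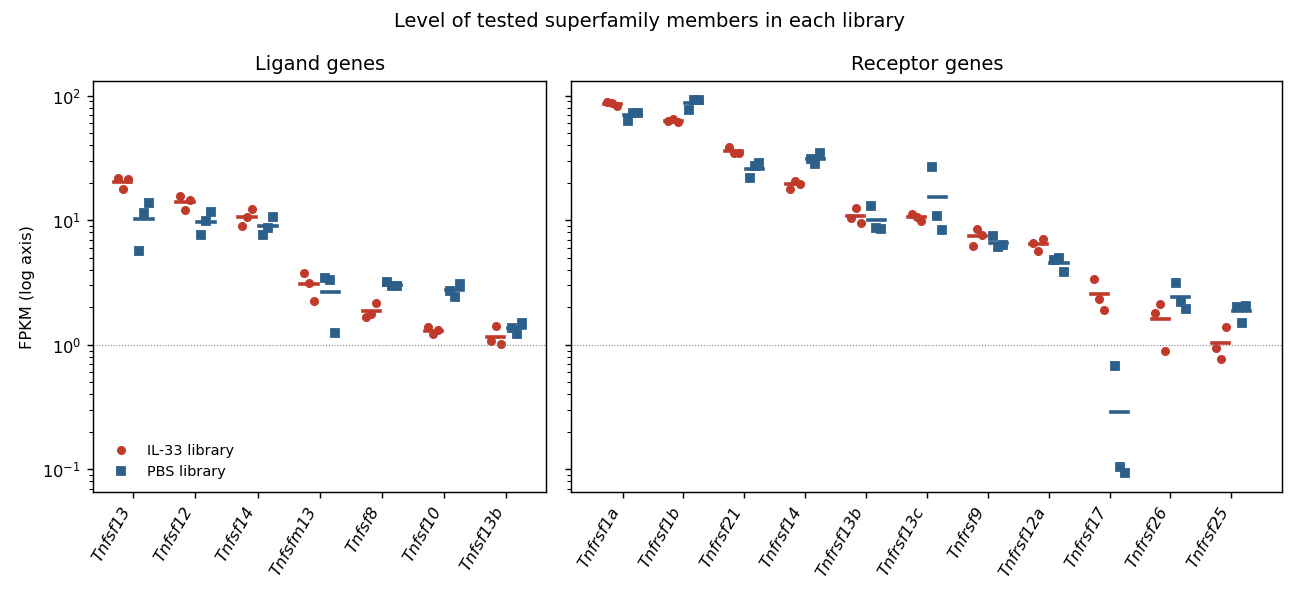
FPKM (log axis) of the 7 tested ligand genes and 11 tested receptor genes in each library, with circles for IL-33, squares for PBS and a line at each group's mean (n = 3). Tnfrsf17 was above 1 FPKM (dotted line) in no PBS library, and Tnfrsf1a and Tnfrsf1b change places at the top of the receptors.

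Among the tested ligands, Tnfsf13 (APRIL, a survival factor of plasma cells) rose the most and was the most abundant with IL-33. It was listed at 21.7, 17.8 and 21.4 FPKM with IL-33, against 5.68, 11.4 and 13.7 FPKM with PBS. Every IL-33 library lay above every PBS library, and PBS replicate 1 was the lowest. The log2 change was 0.99 (SE 0.27, n = 3 per group, limma adjusted p = 0.0181), and the call was lost without IL-33 replicate 1 (0.94, limma adjusted p = 0.0596) or replicate 3 (0.95, limma adjusted p = 0.0509). Without PBS replicate 1, the lowest library, it was 0.65 and still called (limma adjusted p = 0.00765). With equal totals it was 0.67 and called only narrowly (limma adjusted p = 0.0498). In GRCm38, Tnfsf13 spans chromosome 11 from 69682846 to 69685784 (minus strand).

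Tnfsf12 (TWEAK, the ligand of Fn14) is the upstream neighbour of Tnfsf13, from 69686250 to 69695849. Its values were 15.7, 12.1 and 14.7 FPKM with IL-33, against 7.56, 9.89 and 11.6 FPKM with PBS. The groups did not overlap, though IL-33 replicate 2 and PBS replicate 3 were close. Tnfsf12 rose by 0.51 on the log2 scale (SE 0.15, limma adjusted p = 0.0264). That call was lost with equal totals (0.20), without a filter (0.51, limma adjusted p = 0.0537), and without IL-33 replicate 1 or 3 or PBS replicate 1 or 2 (0.36 to 0.54). Tnfsfm13, the read-through gene that joins the TWEAK and APRIL genes, stood at 3.80, 3.12 and 2.27 FPKM with IL-33, against 3.46, 3.31 and 1.25 FPKM with PBS. These ranges overlapped, and the change of 0.19 (SE 0.28, limma adjusted p = 0.579) did not pass. In GENCODE M21, Tnfsfm13 shares 983 of the 1637 exonic bases of Tnfsf13 and 731 of the 1515 exonic bases of Tnfsf12. How fragments were divided among the 3 genes is therefore uncertain. An antisense gene, Tnfsf13os, overlaps 221 exonic bases of Tnfsf13, and the strand setting of the counting is not given in the sources used here.

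A pair of ligands fell. Tnfsf10 (TRAIL, which triggers death receptors) was listed at 1.38, 1.21 and 1.31 FPKM with IL-33, against 2.70, 2.42 and 3.09 FPKM with PBS. All 3 IL-33 libraries were below all 3 PBS libraries. The log2 change was -0.70 (SE 0.10, limma adjusted p = 0.00185), and it was called under all 11 alternatives that held the gene (limma adjusted p 0.000623 to 0.00865). Tnfsf8 (CD30 ligand) was at 1.67, 1.77 and 2.18 FPKM with IL-33, against 3.17, 2.97 and 2.97 FPKM with PBS. The groups were apart, and Tnfsf8 fell by 0.50 (SE 0.10, limma adjusted p = 0.00575). It was called under all 11 alternatives that held the gene. T cell and NK cell transcripts moved with these ligands. The 12 T cell markers summed to 161 to 175 FPKM with IL-33 and 322 to 598 FPKM with PBS, and 11 of them fell. The 9 NK cell markers summed to 215 to 326 FPKM with IL-33 and 529 to 607 FPKM with PBS, and all 9 fell. Their part in the results for Tnfsf10 and Tnfsf8 was not tested. In these bulk libraries, fewer cells of a type and less RNA per cell cannot be told apart.

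The other ligand genes did not pass or were too low to test. Tnfsf14 (LIGHT) was at 8.95, 10.5 and 12.2 FPKM with IL-33, against 7.59, 8.63 and 10.5 FPKM with PBS. The ranges overlapped, and the log2 change of 0.22 (SE 0.14, limma adjusted p = 0.215) turned to -0.08 with equal totals. Tnfsf13b (BAFF) was low in these cells, at 1.07, 1.40 and 1.02 FPKM with IL-33, against 1.37, 1.22 and 1.50 FPKM with PBS (log2 change -0.13, SE 0.12, limma adjusted p = 0.363). The 3 untested ligands were Tnfsf11 (RANKL), Tnfsf15 (TL1A, the ligand of DR3) and Tnfsf18 (GITR ligand). Tnfsf11 was at most 0.251 FPKM with IL-33 and 0.639 FPKM with PBS, and Tnfsf15 at most 0.718 FPKM with IL-33 and 0.501 FPKM with PBS. Tnfsf18 was listed at 0.650, 0.400 and 0.466 FPKM with IL-33, against 0.697, 1.15 and 2.17 FPKM with PBS. Its groups did not overlap, but in the fit without a filter the change of -0.59 did not pass (SE 0.22, limma adjusted p = 0.0885).

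The genes of the 2 TNF receptors were the most abundant members and moved in opposite directions as deposited. Tnfrsf1a encodes the type 1 TNF receptor, which carries a death domain. It was listed at 89.5, 87.4 and 82.3 FPKM with IL-33, against 63.1, 72.2 and 73.0 FPKM with PBS, with no overlap. The log2 change was 0.31 (SE 0.08, limma adjusted p = 0.0124). The rise was lost with quantile normalization (0.06, limma adjusted p = 0.49), and the change was -0.02 with equal totals (limma adjusted p = 0.786), where the median of all genes was -0.29. Tnfrsf1b encodes the type 2 TNF receptor, which binds TRAF2. Its values were 63.0, 65.0 and 61.0 FPKM with IL-33, against 76.6, 92.8 and 92.3 FPKM with PBS. It fell by 0.46 (SE 0.09, limma adjusted p = 0.00448), and it was called under all 12 alternatives, by -0.79 to -0.41.

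Their ratio within a library does not depend on how libraries are scaled. Tnfrsf1a over Tnfrsf1b was 1.42, 1.34 and 1.35 with IL-33, against 0.824, 0.778 and 0.791 with PBS. Tnfrsf1a was thus the more abundant of the pair in each IL-33 library and the less abundant in each PBS library. A two-sided exact permutation test gave p = 0.1, its lowest possible value with 3 libraries per group, and 0.114 after adjustment over the 8 ratios computed, which were chosen after the values were seen. Tnfrsf1a lies on chromosome 6 from 125349362 to 125362484 (plus strand), and Tnfrsf1b on chromosome 4 from 145213463 to 145246870 (minus strand). Both stretches shown above hold a TTCNNNGAA match, as do windows of Tnfrsf25, which fell, and Tnfrsf9, which was not called. The part of these matches in the levels was not tested.

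**Figure D2:**
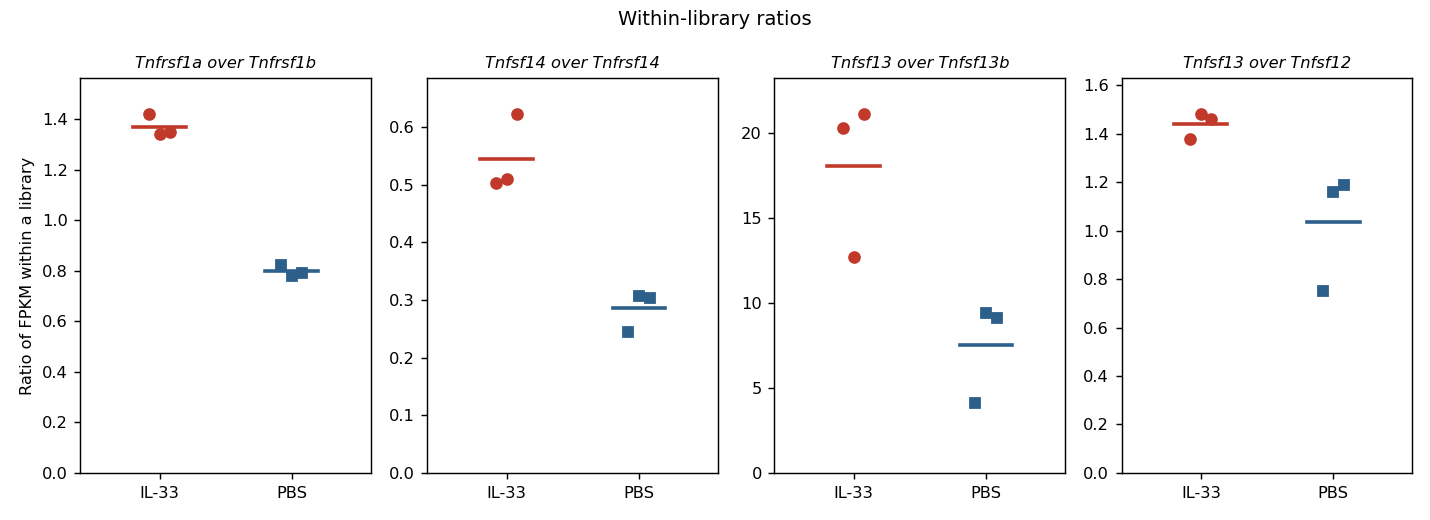
FPKM of one gene divided by that of another within each library, with circles for IL-33, squares for PBS and lines at group means (n = 3). Tnfrsf1a over Tnfrsf1b was 1.34 to 1.42 with IL-33 and 0.778 to 0.824 with PBS, and the circles lie above the squares in each of the 4 panels.

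Of the 3 receptors that bind BAFF or APRIL, 1 rose. Tnfrsf17 (BCMA, the APRIL receptor of plasma cells) was listed at 3.37, 2.35 and 1.91 FPKM with IL-33, against 0.677, 0.104 and 0.0928 FPKM with PBS. Every PBS library was below 1 FPKM, so the gene passed the filter only through the IL-33 group, the only member to do so. PBS replicate 1 was the highest of its group. The ratio of the means was 8.73, or 25.9 without PBS replicate 1 and 6.51 to 9.81 without any other single library. The log2 change was 1.46 (SE 0.22, limma adjusted p = 0.00179), or 3.04 with a pseudocount of 0.1 in place of 1. Plasma cell transcripts moved the same way. The 10 plasma cell markers summed to 548 to 599 FPKM with IL-33 and 267 to 333 FPKM with PBS, and 7 of them rose and 2 fell, but dendritic cells also express some of them, such as Irf4, which is on both lists. Jchain, the joining chain of secreted antibodies, was at 200 ± 20.3 FPKM with IL-33 and 46.2 ± 16.3 FPKM with PBS (SD, n = 3 each). The ratio of Tnfrsf17 to the plasma cell gene Mzb1 was 0.0382, 0.0265 and 0.0200 with IL-33, against 0.0165, 0.00486 and 0.00400 with PBS. Relative to Jchain it was 0.0191, 0.0110 and 0.00912 with IL-33, against 0.0104, 0.00285 and 0.00249 with PBS. The groups were apart for the ratio to 9 of the 10 plasma cell markers, Mzb1 included, and overlapped for the ratio to Jchain, a count made after the values were seen. Those 9 include Slamf7 (log2 change -0.42) and Cd28 (-0.83), which fell, and Prdm1 (0.22), which was not called. The falls of Slamf7 and Cd28 widen their ratios beyond the rise of Tnfrsf17. The count therefore does not measure Tnfrsf17 per plasma cell. The part of plasma cells in the result for Tnfrsf17 was not tested.

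Tnfrsf13b (TACI, which binds both BAFF and APRIL) was at 10.4, 12.6 and 9.57 FPKM with IL-33, against 12.9, 8.66 and 8.58 FPKM with PBS, and did not pass (log2 change 0.12, SE 0.17, limma adjusted p = 0.58). Its change was -0.20 with equal totals. Tnfrsf13c (the BAFF receptor of B cells) was at 11.3, 10.5 and 9.93 FPKM with IL-33, against 26.6, 10.8 and 8.32 FPKM with PBS. PBS replicate 1 stood apart, as it did for the summed B cell markers. The log2 change was -0.32 (SE 0.36, limma adjusted p = 0.47) and 0.14 without that library, and neither passed.

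Other receptors moved in both directions. Tnfrsf14 (HVEM, the receptor for LIGHT) was listed at 17.8, 20.7 and 19.7 FPKM with IL-33, against 30.9, 28.1 and 34.6 FPKM with PBS. All IL-33 libraries were lower, and the log2 change was -0.66 (SE 0.10, limma adjusted p = 0.00164), within -0.98 to -0.58 and called under all 12 alternatives. Tnfrsf21 (death receptor 6) was at 39.0, 34.7 and 34.5 FPKM with IL-33, against 21.8, 27.1 and 29.1 FPKM with PBS. It rose by 0.47 (SE 0.11, limma adjusted p = 0.0114), a call that was lost with equal totals (0.14). Tnfrsf12a (Fn14, the TWEAK receptor) was at 6.62, 5.72 and 7.02 FPKM with IL-33, against 4.80, 4.98 and 3.87 FPKM with PBS. The groups did not overlap, and the rise of 0.43 (SE 0.11, limma adjusted p = 0.0157) was lost with equal totals (0.14) and narrowly without IL-33 replicate 1 (0.41) or replicate 3 (0.37).

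Tnfrsf25 (DR3, a death receptor of T cells that binds TL1A) was low, at 0.941, 0.770 and 1.39 FPKM with IL-33, against 2.02, 1.51 and 2.04 FPKM with PBS. The groups were apart, but IL-33 replicate 3 came close to PBS replicate 2. Its fall of 0.50 (SE 0.15, limma adjusted p = 0.0245) was lost with quantile normalization (-0.44) and without IL-33 replicate 1 or 2 or PBS replicate 1 or 3 (-0.47 to -0.40). Tnfrsf25 relative to Cd3e, a T cell receptor chain gene, was 0.239, 0.195 and 0.550 with IL-33, against 0.124, 0.152 and 0.0702 with PBS. Tnfsf8 relative to Cd3e was 0.424, 0.447 and 0.862 with IL-33, against 0.194, 0.299 and 0.102 with PBS. Both ratios to Cd3e were higher in every IL-33 library (exact permutation p = 0.1, adjusted 0.114), but this depended on the marker. Over the 12 T cell markers, a count made after the values were seen, the groups were apart for 2 ratios of Tnfrsf25 and 6 ratios of Tnfsf8, all higher with IL-33, and overlapped for the other 10 and 6. Relative to Cd4, for example, Tnfsf8 was 0.0426, 0.0484 and 0.0420 with IL-33, against 0.0488, 0.0405 and 0.0478 with PBS.

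The remaining receptors were not called. Tnfrsf9 (4-1BB, a costimulatory receptor) was at 6.23, 8.45 and 7.60 FPKM with IL-33, against 7.41, 6.06 and 6.29 FPKM with PBS (log2 change 0.15, SE 0.12, limma adjusted p = 0.33), and its change was -0.15 with equal totals. Tnfrsf26 was at 1.79, 2.14 and 0.885 FPKM with IL-33, against 3.15, 2.21 and 1.92 FPKM with PBS (log2 change -0.41, SE 0.22, limma adjusted p = 0.143). It passed only with equal totals (-0.64). Its neighbours on chromosome 7, Tnfrsf22 and Tnfrsf23, encode decoy receptors for TRAIL in the mouse. Their longest coding transcripts in GENCODE M21 were 93.6% identical over 1473 aligned bases, so the division of fragments between them is uncertain, and both stayed under the filter. Tnfrsf22 was at 0.584, 0.326 and 0.279 FPKM with IL-33, against 1.35, 1.09 and 0.407 FPKM with PBS, and Tnfrsf23 did not exceed 0.996 FPKM in any library. Tnfrsf10b, the mouse death receptor for TRAIL, was at 0.706, 0.886 and 0.679 FPKM with IL-33, against 1.28, 1.35 and 0.811 FPKM with PBS. Tnfrsf8 (CD30) reached at most 0.498 FPKM, Tnfrsf19 (TROY) 0.231 FPKM and Tnfrsf11b (osteoprotegerin, a soluble decoy for RANKL) 0.0644 FPKM. Without a filter none of the 6 untested receptors passed (limma adjusted p 0.112 to 0.707), and among all 9 untested members the groups were apart for Tnfsf18 alone.

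**Figure D3:**
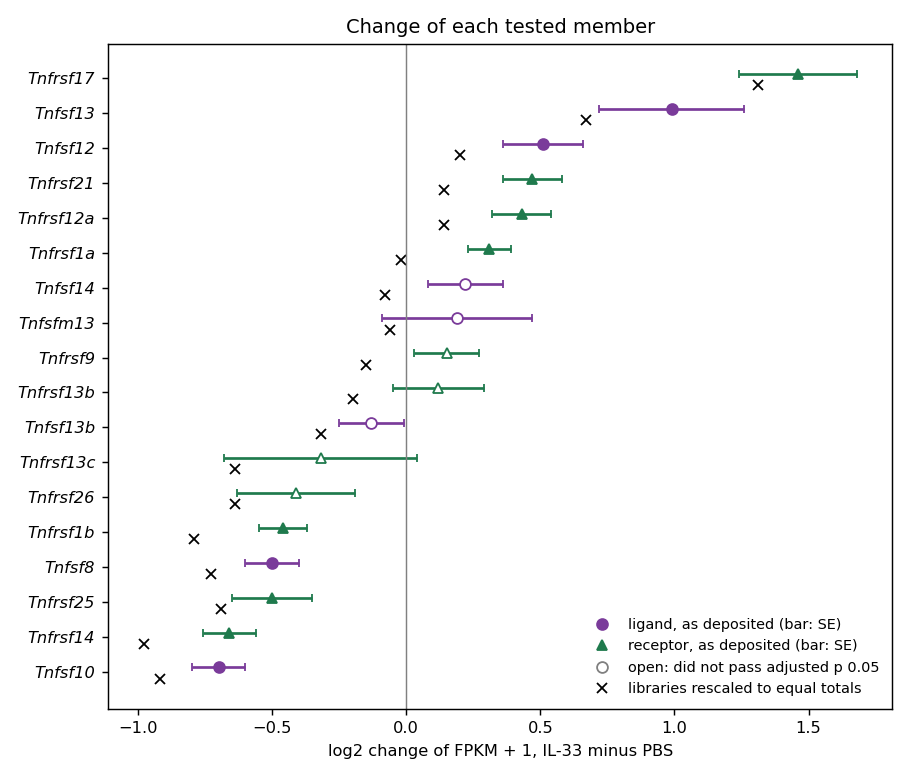
Log2 change (IL-33 minus PBS, log2 of FPKM + 1) of each of the 18 tested members, with the SE as a bar, circles for ligands, triangles for receptors, filled symbols for an adjusted p under 0.05 and crosses for the change with libraries rescaled to equal totals. Changes ran from -0.70 (Tnfsf10) to 1.46 (Tnfrsf17), and every cross lies left of its symbol.

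Ligands and receptors were set side by side. Among 7 tested ligands 2 rose and 2 fell, with a median change of 0.19, and among 11 tested receptors 4 rose and 3 fell, with a median of 0.12. These calls covered 57.1% of tested ligands and 63.6% of tested receptors, near the 53.6% of all tested genes. With equal totals the medians were -0.08 for ligands and -0.20 for receptors. Summed over all 10 ligand genes, the level was 55.6, 48.9 and 56.5 FPKM with IL-33, against 33.3, 42.0 and 47.5 FPKM with PBS. Over all 17 receptor genes it was 252, 253 and 238 FPKM with IL-33, against 254, 258 and 262 FPKM with PBS. Among these members the ligand sum was thus 22.0%, 19.4% and 23.8% of the receptor sum with IL-33, against 13.1%, 16.2% and 18.1% with PBS. These percentages do not depend on the scaling and did not overlap. Without Tnfsf13 they were 13.4%, 12.3% and 14.7% with IL-33, against 10.8%, 11.8% and 12.9% with PBS, and overlapped. Tnfsf13 made up 37.8% ± 1.32 of the ligand sum with IL-33 and 24.4% ± 6.40 with PBS (SD, n = 3 each). Superfamily genes under other symbols, left out of these sums, moved the other way. Their ligands summed to 150, 126 and 129 FPKM with IL-33, against 243, 222 and 219 FPKM with PBS. Their receptors summed to 145, 139 and 133 FPKM with IL-33, against 114, 113 and 131 FPKM with PBS. The percentages therefore do not describe the superfamily as a whole.

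The order of levels was similar in the groups, apart from Tnfrsf17 and some genes of close levels. By mean level, Tnfrsf17 had rank 9 among receptors with IL-33 and rank 15 with PBS. Tnfsfm13 had rank 4 among ligands with IL-33 and rank 6 with PBS, where its values overlapped those of Tnfsf8 and Tnfsf10. Tnfsf13, Tnfsf12 and Tnfsf14 were the first 3 ligands in both groups. With PBS they could not be ordered beyond their spread, whereas with IL-33 all 3 values of Tnfsf13 lay above those of the other two. Among receptors, Tnfrsf1a and Tnfrsf1b led in both groups and exchanged places. Tnfrsf21 was above Tnfrsf14 in every IL-33 library and below it in every PBS library. Tnfrsf13b and Tnfrsf13c did not differ beyond their spread in either group, and Tnfrsf9 and Tnfrsf12a overlapped with IL-33.

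Ligand and receptor pairs did not all change together. Tnfsf12 and its receptor gene Tnfrsf12a both rose as deposited. For LIGHT and HVEM, the ratio of Tnfsf14 to Tnfrsf14 was 0.503, 0.509 and 0.622 with IL-33, against 0.245, 0.307 and 0.304 with PBS, higher in each IL-33 library (exact permutation p = 0.1, adjusted 0.114). For the 2 ligands that share TACI, the ratio of Tnfsf13 to Tnfsf13b was 20.3, 12.7 and 21.1 with IL-33, against 4.14, 9.38 and 9.12 with PBS. APRIL transcript therefore exceeded BAFF transcript in each library, and by more in each IL-33 library. The ratio of Tnfsf13 to its neighbour Tnfsf12 was 1.38, 1.48 and 1.46 with IL-33, against 0.751, 1.16 and 1.19 with PBS. Both members of the pair Tnfsf8 and Tnfrsf8 were low, and Tnfsf10 fell while its receptor gene Tnfrsf10b was under the filter.

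Superfamily genes named otherwise were counted beside the members. Of all tested genes, 28.0% rose and 25.5% fell as deposited, or 11.1% and 50.7% with equal totals. Of 5 tested ligands none rose and 3 fell, or 5 with equal totals and 2 with quantile normalization. Ltb (lymphotoxin beta, which with lymphotoxin alpha engages the LTβ receptor) was at 88.0 ± 8.22 FPKM with IL-33 and 173 ± 21.1 FPKM with PBS (SD, n = 3 each), a log2 change of -0.97 (SE 0.11, limma adjusted p = 0.000697). Cd40lg fell by 0.73 (SE 0.17). Fasl fell by 0.87 (SE 0.29, limma adjusted p = 0.038), a call that 6 of 11 alternatives did not keep, and its groups overlapped. Lta (lymphotoxin alpha) did not pass (log2 change -0.46, SE 0.19, limma adjusted p = 0.0769), although it did with equal totals (-0.73). Tnf itself, named after its values were seen, was at 40.7 ± 5.13 FPKM with IL-33 and 42.9 ± 8.01 FPKM with PBS and did not pass (limma adjusted p = 0.74), although it did with equal totals (-0.40). Of 6 tested receptors 4 rose and 2 fell, or 3 and 2 with equal totals. The LTβ receptor gene Ltbr rose by 0.73 (SE 0.11) to 38.0 ± 2.59 FPKM with IL-33, against 22.6 ± 3.35 FPKM with PBS. Relt rose by 0.56 (SE 0.07), whereas Cd27, a costimulatory receptor of lymphocytes, fell by 1.72 (SE 0.22). The T cell and NK cell markers described above fell beside Cd40lg, Fasl and Cd27, and their part in these results was not tested. Cd40, the receptor through which T cells license dendritic cells, fell by 0.38 (SE 0.06) to 26.8 ± 0.873 FPKM with IL-33, against 35.3 ± 0.940 FPKM with PBS. Eda2r and Edar were listed at 0 in all libraries.

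Downstream genes were split by group. Their counts stand beside 28.0% of all tested genes higher and 25.5% lower as deposited, or 11.1% and 50.7% with equal totals. Among 8 genes of the death domain and caspase-8 complex, 5 rose and none fell as deposited, while with equal totals 2 were higher and 2 lower. The calls of Fadd (0.29, SE 0.10) and Casp8 (0.32, SE 0.09), 2 of these 5, were lost under 8 and 5 of the 12 alternatives. Mlkl, the executor of necroptosis, was at 9.42 ± 0.860 FPKM with IL-33 and 3.77 ± 0.645 FPKM with PBS (SD, n = 3 each), a log2 change of 1.13 (SE 0.12, limma adjusted p = 0.000596). Ripk3, the kinase that activates it, was at 44.0 ± 4.94 FPKM with IL-33 and 22.9 ± 2.10 FPKM with PBS (log2 change 0.91, SE 0.10, limma adjusted p = 0.000739). Both kept their calls with equal totals, at 0.85 and 0.58, whereas Tradd (0.47 as deposited) was at 0.14 and Casp8 at -0.01 and neither was called. Among 7 TRAF genes, Traf5 rose (0.42, SE 0.08) and Traf3, which restrains the non-canonical pathway, fell (-0.43, SE 0.10), while rescaling to equal totals left none higher and 5 lower. In the non-canonical NF-κB chain 1 of 6 rose and 3 fell, or none and 5 with equal totals. Chuk (-0.36, SE 0.07) and Relb (-0.34, SE 0.07) fell, and the call of Map3k14 (-0.24) was lost under 5 of the 12 alternatives. Nfkb2 (0.19) was called narrowly and turned to -0.14 with equal totals and -0.09 with quantile normalization.

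**Figure D4:**
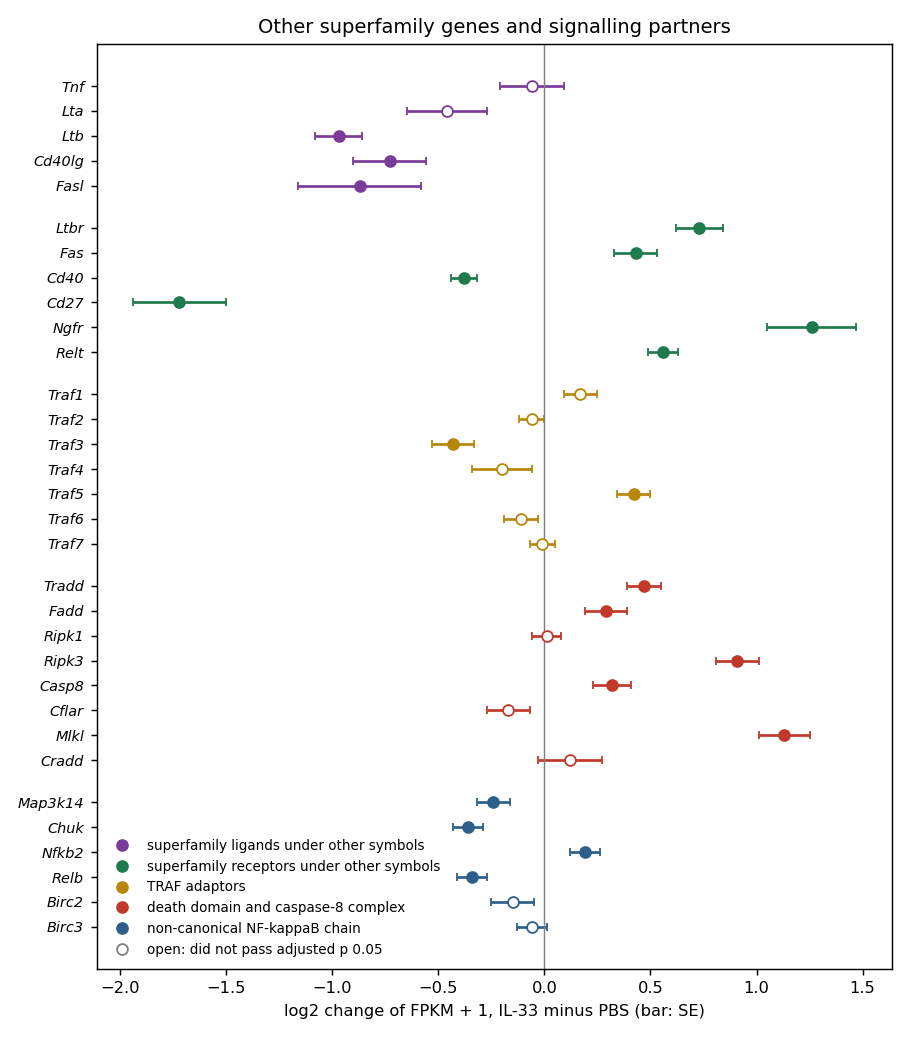
Log2 change (IL-33 minus PBS, log2 of FPKM + 1) with the SE as a bar for other superfamily genes, TRAF adaptors, the death domain and caspase-8 complex and the non-canonical NF-κB chain, with filled symbols for an adjusted p under 0.05. Cd27 lies farthest left at -1.72, and Ngfr (1.26) and Mlkl (1.13) farthest right.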

How the data were processed

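RNA was measured in 3 IL-33 and 3 PBS libraries made with a stranded mRNA kit, per the labels' protocols. The authors deposited 1 table of FPKM values per library. The submitters' processing notes name Cuffnorm 2.2.1, SAMtools 0.1.19, Bowtie2 2.2.3, TopHat2 2.0.13 and the build mm10. For the annotation, strand setting and scaling between libraries, the entry is: not given in the sources used here. No counts were used, so no depth interval is given, and the number of libraries limits the precision. Values were analysed as log2(FPKM + 1), which understates changes of low genes. Genes at 1 FPKM or more in at least 3 libraries were fitted with limma 3.58.1 (R 4.3.3), with a variance trend, no block, two-sided tests and Benjamini-Hochberg adjustment over all tested genes. The fit was tested on simulated data. No pair of libraries shared more than 8 equal values among tested genes. Alternatives were another pseudocount, no filter or a filter of 5 FPKM, equal totals, quantile normalization, a replicate block and leaving out each library. The members, the lists of pathway genes and cell markers and the naming rule (all tested members; from each pathway list, genes among its 4 smallest adjusted p may be named) were chosen with earlier results of these data known. Tnf, Fadd and Ngfr were named after their values were seen. Markers of other myeloid cells, platelets and regulatory T cells are counted in the closing section. Of the 8 ratios within libraries that were computed and adjusted together, 1 is not reported here. Coordinates are from GENCODE M21 (GRCm38, also called mm10) and promoters from RefSeq (GRCm38.p6). Figures were drawn with matplotlib 3.10.9 and tables made with numpy 2.4.6 and pandas 2.3.3 (Python 3.11.15).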

Additional observations from a re-analysis of the deposited data

How the results depend on the processing

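Of 209 values of tested members under 12 alternatives, 183 kept their direction and side of the threshold, 18 lost the call, 1 gained it and 7 turned. The turned values were -0.20 (Tnfrsf13b), -0.02 (Tnfrsf1a), -0.15 (Tnfrsf9), -0.08 (Tnfsf14) and -0.06 (Tnfsfm13) with equal totals, 0.14 (Tnfrsf13c) without PBS replicate 1 and -0.13 (Tnfsfm13) without PBS replicate 3. Of these only Tnfrsf1a had been called. With 1 library left out, Tnfrsf13c ran from -0.64 to 0.14 and Tnfsfm13 from -0.13 to 0.37. With equal totals 1280 genes were higher and 5840 lower, 1 ligand and 1 receptor were higher, and the medians were -0.08 for ligands and -0.20 for receptors, since that scaling lowers IL-33 values. Without a filter 1 ligand was higher, the ligand median over 10 genes was 0.00, and at 5 FPKM no ligand was lower, with a median of 0.51 over the 3 ligands left. With 1 library left out, 0 to 2 ligands were higher, 0 being without IL-33 replicate 1 or 3, and the ligand median lay between -0.09 (without PBS replicate 3) and 0.21. The cause was not tested. The replicate numbers are not said to mark pairs, and the deviations of same-numbered libraries correlated at 0.0750, -0.0544 and 0.0890. With the replicate number as a block, 2806 genes were higher and 2452 lower, the counts of members were the same (2 ligands and 4 receptors higher, 2 and 3 lower), and no member's call changed, while the pathway gene Lta was called (limma adjusted p = 0.0332) and Fadd (0.0572), Map3k14 and Nfkb2 were not. Exact permutation tests of 3 against 3 libraries cannot fall below 0.1, and members under 1 FPKM are low, with a precision that is not known without counts.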

Other observations

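Markers of other myeloid cells were counted in the same fit, where 28.0% of all tested genes rose and 25.5% fell. Of 8 eosinophil markers 6 rose and none fell, with summed levels of 870 to 1238 FPKM with IL-33 and 216 to 310 FPKM with PBS. Among 10 neutrophil markers 7 rose and 2 fell (1243 to 2495 FPKM with IL-33 and 527 to 847 FPKM with PBS). Basophil and mast cell markers rose in 4 of 5 tested cases, with sums of 18.2 to 31.4 FPKM with IL-33 and 6.35 to 8.50 FPKM with PBS. Of 11 monocyte and macrophage markers 4 rose, 1 fell and 6 were not called, or 1 rose and 1 fell with equal totals. Their sums were 3972 to 5710 FPKM with IL-33 and 2263 to 3890 FPKM with PBS. The separation of these sums rests on Chil3, at 1274, 509 and 172 FPKM with IL-33, against 11.5, 14.6 and 9.73 FPKM with PBS. Of 4 tested platelet markers 1 rose and 1 fell, and their sums overlapped. Among 5 tested markers of regulatory T cells 2 rose (Ctla4 and Il2ra) and 1 fell (Icos), while Foxp3 and Ikzf2 were not called. Sums over the list were 16.7 to 21.4 FPKM with IL-33 and 12.7 to 15.4 FPKM with PBS. Their separation rests on the inhibitory receptor gene Ctla4, at 9.38 ± 1.57 FPKM with IL-33 and 3.09 ± 0.674 FPKM with PBS (SD, n = 3 each). Icos was at 4.76 ± 0.821 FPKM with IL-33 and 7.31 ± 1.44 FPKM with PBS. The part of these cells in the levels of the superfamily members was not tested.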
